A study of Mus musculus with 43 samples.

Results

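Immediate early genes were examined across the 43 samples of a study of the arginine methyltransferase Prmt1 in mouse spermatogonia. The 10 genes were the AP-1 and ATF factors Fos, Fosb, Jun, Junb and Atf3, the zinc finger factor Egr1, the nuclear protein gene Ier2, and the feedback inhibitors Socs3, Dusp1 and Zfp36. They were matched by GENCODE vM21 symbol, without the version of the identifier, and are 10 of the 55401 gene identifiers in the RNA tables, of which 55141 had a match. The list was selected on the RNA levels of these same libraries, with Smart-seq2 set against bulk RNA-seq in each genotype. The RNA values of the 10 genes are therefore given as a description, without a test.

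Bulk RNA-seq was available for 3 WT and 3 Prmt1-dKO samples, and modified Smart-seq2 for 2 WT and 2 Prmt1-dKO samples, all at postnatal day 7 (P7). CUT&Tag peak lists covered 7 histone marks in WT at P7 and at P14, and H4R3me2s also in Prmt1-dKO at P7, 33 lists in all. Prmt1-dKO mice were homozygous for a floxed Prmt1 allele and carried CreERT2 with EGFP under the Ddx4 promoter, which is active in germ cells, so that somatic cells of the testis kept Prmt1. The design notes give tamoxifen on 3 days for the WT and the conditional knockout samples alike, and C57BL/6J as the source of the WT CUT&Tag cells. Bulk libraries were made from whole testis, although their label names spermatogonia. Smart-seq2 libraries were made from pooled cells sorted for GFP after collagenase and trypsin digestion, and the sorting protocol names animals with the same Cre and 1 floxed allele as controls, where the labels say WT. CUT&Tag used strained cell suspensions of digested tubules, and the P14 samples are titled spermatogonia but carry spermatocyte as their cell type. The study calls its replicates biological, while the labels do not tie them to separate animals or cultures, so p-values measure the spread between these samples.

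Immediate early genes are transcribed within minutes of a stimulus without new protein synthesis, when kinases of the MAPK cascade and cytokine receptors switch on factors that already sit in the cell, such as SRF with its ETS partners, CREB and STAT3. Fos and Jun family proteins pair through leucine zippers as AP-1, while Socs3, Dusp1 and Zfp36 shut the response down again. The genes are also known to respond to tissue dissociation. Their transcripts are short-lived.

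Promoter sequences were taken from the RefSeq table for GRCm38.p6, which held 8 of the 10 genes and had no entry for Egr1 and Ier2. The 250 bases upstream of the start are shown for 4 genes with a match there to a motif of factors acting on such promoters. They are also shown for Fos. In 9 of its 12 lists with an arginine methylation peak, the summit of highest fold enrichment lay in that window. A RefSeq start can lie inside the GENCODE span of the gene. Searched on both strands were the cAMP response element TGACGTCA, the AP-1 site TGANTCA, the CArG box that SRF binds, the STAT site TTCNNNGAA and the EGR site GCGNGGGCG. Capitals mark the matches, and each sequence reads 5′ to 3′ on the strand of the gene.
Fos, chr12:85473640-85473889, plus strand: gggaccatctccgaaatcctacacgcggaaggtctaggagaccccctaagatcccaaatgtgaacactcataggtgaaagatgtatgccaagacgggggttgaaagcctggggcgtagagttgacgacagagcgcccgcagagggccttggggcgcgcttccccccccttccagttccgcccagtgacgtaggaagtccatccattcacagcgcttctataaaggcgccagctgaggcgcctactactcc
Fosb, chr7:19310046-19310295, minus strand: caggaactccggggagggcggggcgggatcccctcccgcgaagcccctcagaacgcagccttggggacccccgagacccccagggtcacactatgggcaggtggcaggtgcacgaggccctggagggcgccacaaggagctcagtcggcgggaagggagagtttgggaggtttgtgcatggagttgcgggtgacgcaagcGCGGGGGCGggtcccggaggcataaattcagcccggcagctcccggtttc
Socs3, chr11:117969367-117969616, minus strand: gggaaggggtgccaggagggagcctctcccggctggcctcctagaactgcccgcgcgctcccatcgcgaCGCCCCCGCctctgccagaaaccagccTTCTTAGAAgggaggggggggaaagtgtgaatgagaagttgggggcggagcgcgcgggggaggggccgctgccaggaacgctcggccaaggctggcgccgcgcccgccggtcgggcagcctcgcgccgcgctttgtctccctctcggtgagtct
Dusp1, chr17:26508473-26508722, minus strand: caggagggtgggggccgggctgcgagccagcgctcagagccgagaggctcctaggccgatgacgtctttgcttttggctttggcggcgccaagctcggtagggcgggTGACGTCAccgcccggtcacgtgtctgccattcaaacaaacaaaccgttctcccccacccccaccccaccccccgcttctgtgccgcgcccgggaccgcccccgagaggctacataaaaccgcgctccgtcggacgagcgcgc
Zfp36, chr7:28379229-28379478, minus strand: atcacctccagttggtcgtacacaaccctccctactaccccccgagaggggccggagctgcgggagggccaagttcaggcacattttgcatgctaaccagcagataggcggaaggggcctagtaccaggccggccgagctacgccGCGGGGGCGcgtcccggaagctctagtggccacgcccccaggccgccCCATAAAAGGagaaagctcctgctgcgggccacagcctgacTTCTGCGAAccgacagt

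Of the 8 promoters, 1 held the cAMP response element (Dusp1, at -143 to -136 from the start), which 1.55% of all 32851 promoters of the table held. The CArG box was found in 1 of 8 (Zfp36, at -58 to -49) against 1.47% of all promoters. The STAT site was found in 2 of 8 (Socs3 at -154 to -146 and Zfp36 at -17 to -9) against 7.02%, and the EGR site in 3 of 8 (Fosb at -50 to -42, Socs3 at -181 to -173 on the opposite strand, Zfp36 at -105 to -97) against 4.7%. No exact AP-1 site stood in the 8 windows, and 6.75% of all promoters held one. These windows were GC-rich, between 58.4% and 71.6% GC, where the median of all promoters was 52.4%.

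Bulk libraries held 12396317 to 16598233 expected counts each, and Smart-seq2 libraries 15610354 to 18547078. Replicates correlated at Pearson's r of 0.955 to 0.984 across genes on the log2(TPM + 1) scale in bulk RNA-seq, at 0.957 in Smart-seq2 Prmt1-dKO and at 0.851 in Smart-seq2 WT. The Smart-seq2 WT libraries stood apart, with 17106 and 15587 genes detected against 21404 and 20194 in Smart-seq2 Prmt1-dKO. In Smart-seq2, 1817 genes had at least 50 counts in 1 WT library and 0 in the other, against 47 such genes between the Prmt1-dKO libraries. Prmt1 was at 652, 604 and 638 TPM in bulk WT and at 410, 433 and 402 TPM in bulk Prmt1-dKO (log2 fold change -0.49 ± 0.13 SE, edgeR FDR = 0.0334). It was at 350 and 239 TPM in Smart-seq2 WT and at 179 and 151 TPM in Smart-seq2 Prmt1-dKO (log2 fold change -0.88 ± 0.26 SE, edgeR FDR = 0.133), so the labelled direction held in both assays while the Smart-seq2 difference did not pass the test. The floxed part is exons 4 and 5, which a count over the whole gene checks only in part.

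In whole testes, the 10 genes lay close together between the genotypes. In sorted cells most of them stood several-fold higher in the Prmt1-dKO libraries than in the WT libraries, which also held fewer detected genes. Their median log2 fold change, Prmt1-dKO against WT, was 0.14 in bulk RNA-seq (0.02 over all 16554 genes tested) and 3.17 in Smart-seq2 (0.15 over all 16443 genes tested). In bulk RNA, fewer cells of a type and less RNA per cell cannot be told apart, and the same holds for every level below.

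**Figure D1:**
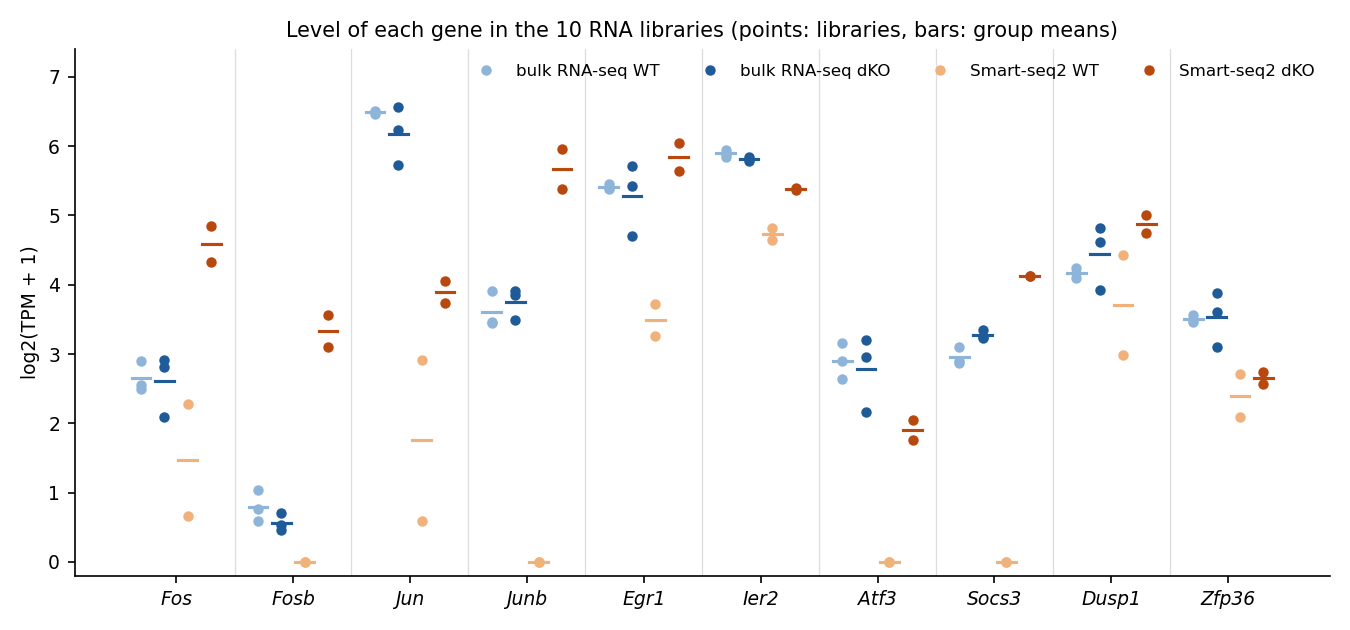
Level of each of the 10 genes in the 10 RNA libraries at P7, as log2(TPM + 1) on the y axis; points are libraries and bars are group means of the log values. Fosb, Junb, Atf3 and Socs3 sit at 0 in both Smart-seq2 WT libraries, and the Prmt1-dKO points of Smart-seq2 lie above the WT points for every gene except Zfp36, whose ranges overlap on this scale.

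Fos (ENSMUSG00000021250.13, chromosome 12, 85473890 to 85477273, plus strand, GRCm38), the inducible partner in AP-1, was at 4.64, 6.44 and 4.86 TPM in bulk WT and at 6.55, 3.25 and 6.01 TPM in bulk Prmt1-dKO. In Smart-seq2 it was at 0.58 and 3.83 TPM in WT and at 19.1 and 27.9 TPM in Prmt1-dKO. The bulk groups overlapped and the Smart-seq2 groups did not, with log2 fold changes of 0.20 ± 0.22 and 3.67 ± 1.18 (SE). Fosb (ENSMUSG00000003545.3, chromosome 7, 19302696 to 19310051, minus strand), its paralog, was the lowest of the 10 genes in bulk RNA-seq, at 0.69, 1.06 and 0.51 TPM in WT and 0.44, 0.38 and 0.63 TPM in Prmt1-dKO. Both Smart-seq2 WT libraries held 0 Fosb counts, whereas the Prmt1-dKO libraries held 376 and 474, at 7.56 and 10.8 TPM. Over the libraries of each group, with a floor of 3 counts for a group at 0, Fosb was at least 316-fold higher in Smart-seq2 Prmt1-dKO than in WT. This bound and those below cover counting error only. A WT library could also miss a gene, as 1817 genes had at least 50 counts in 1 Smart-seq2 WT library and 0 in the other.

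Jun (ENSMUSG00000052684.4, chromosome 4, 95049034 to 95052222, minus strand), the main partner of Fos in AP-1 and a gene of a single exon, was the most abundant of the 10 genes in whole testis. It was at 90.2, 89.0 and 87.4 TPM in bulk WT and at 74.6, 51.9 and 94.1 TPM in bulk Prmt1-dKO, where the Prmt1-dKO libraries spread around the narrow WT range. In Smart-seq2 it was at 6.53 and 0.51 TPM in WT and at 12.3 and 15.7 TPM in Prmt1-dKO. The 2 WT libraries thus differed more from each other than the Prmt1-dKO libraries did, and the log2 fold change of 2.20 carried an SE of 1.22. Junb (ENSMUSG00000052837.7, chromosome 8, 84974484 to 84978718, minus strand), a Jun paralog that can also restrain AP-1, was at 10.1, 9.88 and 14.0 TPM in bulk WT and 14.0, 10.2 and 13.4 TPM in bulk Prmt1-dKO. Neither Smart-seq2 WT library held a Junb count, and those of Prmt1-dKO held 991 and 1299 (40.5 and 61.0 TPM), at least 851-fold higher. Atf3 (ENSMUSG00000026628.13, chromosome 1, 191170296 to 191218039, minus strand), a stress-induced factor of the ATF family, was at 7.95, 6.46 and 5.21 TPM in bulk WT and 6.77, 3.48 and 8.25 TPM in bulk Prmt1-dKO. It was likewise at 0 in both Smart-seq2 WT libraries, and at 65 and 74 counts (2.39 and 3.13 TPM) in Prmt1-dKO, at least 51.7-fold higher.

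Egr1 (ENSMUSG00000038418.7, chromosome 18, 34859823 to 34864984, plus strand), a zinc finger factor induced through SRF, was at 42.7, 40.6 and 41.1 TPM in bulk WT and 41.9, 25.1 and 51.6 TPM in bulk Prmt1-dKO. It was at 12.2 and 8.59 TPM in Smart-seq2 WT and at 49.1 and 65.4 TPM in Smart-seq2 Prmt1-dKO. Egr1 was detected in every library, and its Smart-seq2 difference of 2.67 ± 0.30 (log2, SE) had the smallest SE of the 6 genes with counts in WT. Ier2 (ENSMUSG00000053560.5, chromosome 8, 84661331 to 84662852, minus strand), a single-exon gene for a small nuclear protein, was at 58.0, 56.7 and 60.9 TPM in bulk WT and 56.4, 54.5 and 55.1 TPM in bulk Prmt1-dKO. In Smart-seq2 it was at 24.0 and 27.3 TPM in WT and at 41.2 and 40.1 TPM in Prmt1-dKO, a log2 fold change of 0.88 ± 0.31. In bulk RNA-seq the side on which Ier2 fell depended on the scale, since its TPM were lower in all 3 Prmt1-dKO libraries while its log2 fold change on TMM-scaled counts was 0.09 ± 0.11.

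Among the feedback inhibitors, Socs3 (ENSMUSG00000053113.3, chromosome 11, 117966079 to 117970047, minus strand), which blocks JAK kinases downstream of cytokine receptors, was at 6.34, 6.44 and 7.56 TPM in bulk WT and at 8.51, 8.37 and 9.14 TPM in bulk Prmt1-dKO. All bulk Prmt1-dKO libraries were above all bulk WT libraries on both the TPM and the count scale, with a log2 fold change of 0.58 ± 0.16. Socs3 held 0 counts in both Smart-seq2 WT libraries and 592 and 515 in Prmt1-dKO (16.5 TPM in each), at least 412-fold higher. Dusp1 (ENSMUSG00000024190.7, chromosome 17, 26505590 to 26562128, minus strand), a phosphatase that inactivates MAP kinases, was at 16.1, 17.9 and 17.0 TPM in bulk WT and 23.5, 14.2 and 27.1 TPM in bulk Prmt1-dKO. These bulk groups overlapped in TPM but not in TMM-scaled counts (log2 fold change 0.49 ± 0.18). In Smart-seq2 Dusp1 was at 20.6 and 6.93 TPM in WT and at 25.9 and 31.2 TPM in Prmt1-dKO (1.10 ± 0.63). Zfp36 (ENSMUSG00000044786.6, chromosome 7, 28376784 to 28380253, minus strand), which binds AU-rich elements and speeds the decay of short-lived mRNA, was at 10.28, 10.02 and 10.87 TPM in bulk WT and 11.2, 7.58 and 13.8 TPM in bulk Prmt1-dKO. It was the gene that differed least in Smart-seq2, at 3.24 and 5.54 TPM in WT and 4.90 and 5.65 TPM in Prmt1-dKO (0.51 ± 0.80).

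Exons of 4 of the 10 genes overlap a gene on the other strand in the annotation, namely Jun with Junos, Zfp36 with Gm44710, Junb with Prdx2 and Dusp1 with Ergic1. Whether reads were counted by strand is not given in the sources used here, so reads of such pairs cannot be told apart where they overlap.

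Counted over the list, edgeR's quasi-likelihood test called 0 of the 10 genes in bulk RNA-seq (called meant at least 2-fold with an FDR under 0.05), where 5.32% of all genes tested were called higher and 1.78% lower in Prmt1-dKO. DESeq2 also called 0 of the 10 there, and at an unadjusted p under 0.05 edgeR put 1112 of all genes at 2-fold or more higher and 364 lower. On TMM-scaled counts, 2 of the 10 genes had all Prmt1-dKO libraries above all WT libraries (20.9% of all genes tested) and 0 had them below (19.9%). In Smart-seq2 edgeR called 0 genes in either direction, both among the 10 and over all genes (0% higher and 0% lower), with 2267 genes on the higher and 678 on the lower side when p was left unadjusted (under 0.05, 2-fold or more). DESeq2 called 1238 genes higher and 664 lower in the same libraries, and 6 of the 10 genes, Fos, Fosb, Junb, Egr1, Atf3 and Socs3, were among the higher ones. All 10 genes had both Smart-seq2 Prmt1-dKO libraries above both WT libraries on TMM-scaled counts, against 36.3% of all genes above and 20.3% below, and 9 of 10 did so in TPM. Since these contrasts chose the list, nothing is read from those counts. The biological coefficient of variation was 0.155 in bulk RNA-seq and 0.767 in Smart-seq2. Without Smart-seq2 WT replicate 1, or without WT replicate 2, edgeR called 8 of the 10 genes higher, but also 5290 of 17942 and 4089 of 18164 of all genes tested, the lone WT library being then assumed to vary like the others.

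**Figure D2:**
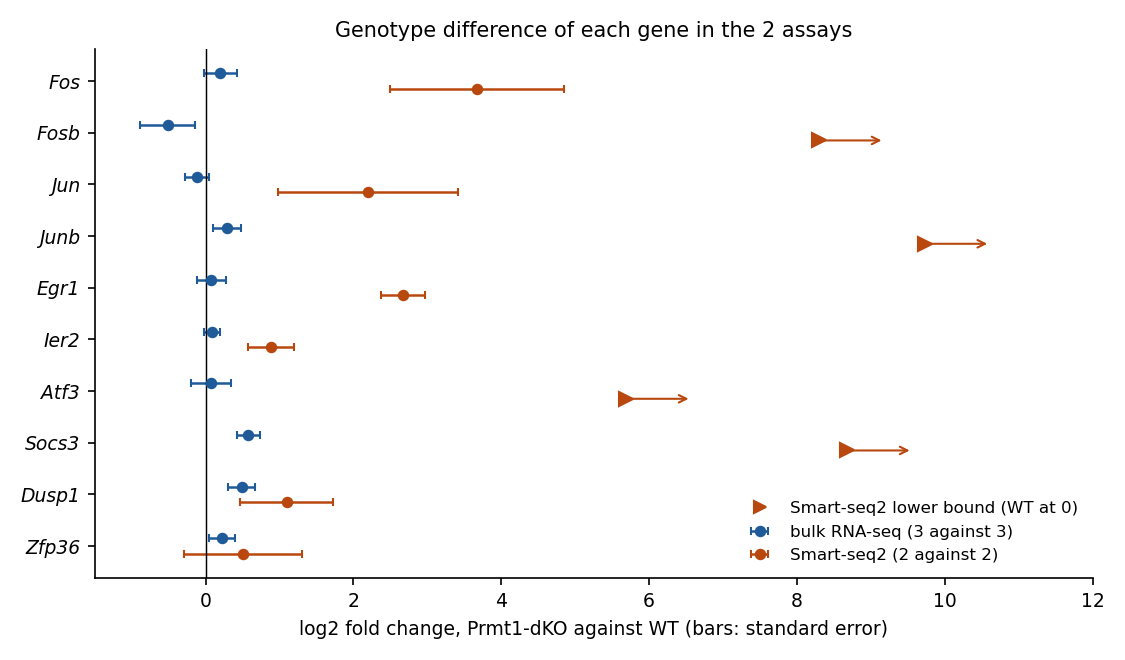
Log2 fold change of Prmt1-dKO against WT for each gene, with bars for the standard error, in bulk RNA-seq (blue, 3 against 3 libraries) and Smart-seq2 (orange, 2 against 2). Triangles with arrows are lower bounds for the 4 genes at 0 in both Smart-seq2 WT libraries; the bulk values stay between -0.51 (Fosb) and 0.58 (Socs3).

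Estimated within a joint fit of the 10 libraries, the Smart-seq2 genotype difference exceeded the bulk one by 3.56 ± 1.02 for Fos, 2.4 ± 1 for Jun, 2.67 ± 0.39 for Egr1, 0.89 ± 0.23 for Ier2, 0.70 ± 0.60 for Dusp1 and 0.38 ± 0.46 for Zfp36 (log2, SE). For the other 4 genes, whose WT Smart-seq2 counts were 0, no such difference of folds is given. With these 4 genes at their lower bounds, the median Smart-seq2 log2 fold change of the list stayed at 3.17. That median lies between Egr1 and Fos, so bounds of 5.69 (Atf3) to 9.73 (Junb) could not move it.

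Several cell type markers moved with the Smart-seq2 values of the immediate early genes. The summed level of the 10 genes was 52.7 to 67.2 TPM in Smart-seq2 WT and 219 to 277 TPM in Smart-seq2 Prmt1-dKO, and 244 to 249 and 179 to 279 TPM in the bulk groups. The 11 macrophage markers summed to 0 to 0.19 TPM in Smart-seq2 WT, where 10 of them were at 0 in both libraries, and to 99.7 to 118 TPM in Smart-seq2 Prmt1-dKO, where Adgre1 alone was at 0. In bulk RNA-seq they summed to 170 to 194 TPM in WT and 193 to 240 TPM in Prmt1-dKO. The 14 germ cell markers, among them Ddx4, stood at 1844 to 1885 TPM in Smart-seq2 WT and at 2126 to 2205 TPM in Smart-seq2 Prmt1-dKO, with none at 0. In bulk RNA-seq they summed to 1697 to 1968 TPM in WT and 1622 to 1686 TPM in Prmt1-dKO. The sum in sorted WT cells thus lay inside the range of whole WT testis. The 12 Sertoli cell markers summed to 351 to 372 and 485 to 661 TPM, and the 6 erythroid markers to 24.2 to 30 and 83.8 to 191 TPM, in the WT and Prmt1-dKO Smart-seq2 libraries. The 7 Leydig cell markers summed to 0.12 to 8.25 TPM in WT, with 5 at 0 in both libraries, and to 6.9 to 12.1 TPM in Prmt1-dKO, with 3 at 0. The sum of the 7 peritubular myoid markers was higher in Smart-seq2 WT (18.9 to 22 TPM, against 6.08 to 7.76 TPM in Prmt1-dKO). So was the sum of the 9 endothelial markers (109 to 129 against 74.7 to 99.2 TPM). Yet 6 endothelial markers (Pecam1, Cdh5, Kdr, Tek, Vwf and Esam) were at 0 in both WT libraries, against Vwf alone in both Prmt1-dKO libraries. Of the myoid markers, Myh11, Cnn1 and Des were at 0 in both WT libraries, against Actg2 alone in both Prmt1-dKO libraries. In bulk RNA-seq the Sertoli sum was 7532 to 8118 TPM in WT and 4998 to 5716 TPM in Prmt1-dKO, and the Leydig sum 742 to 842 and 281 to 306 TPM, so these libraries held somatic transcripts that the label spermatogonia does not name. The part of these markers in the differences of the immediate early genes was not tested.

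**Figure D3:**
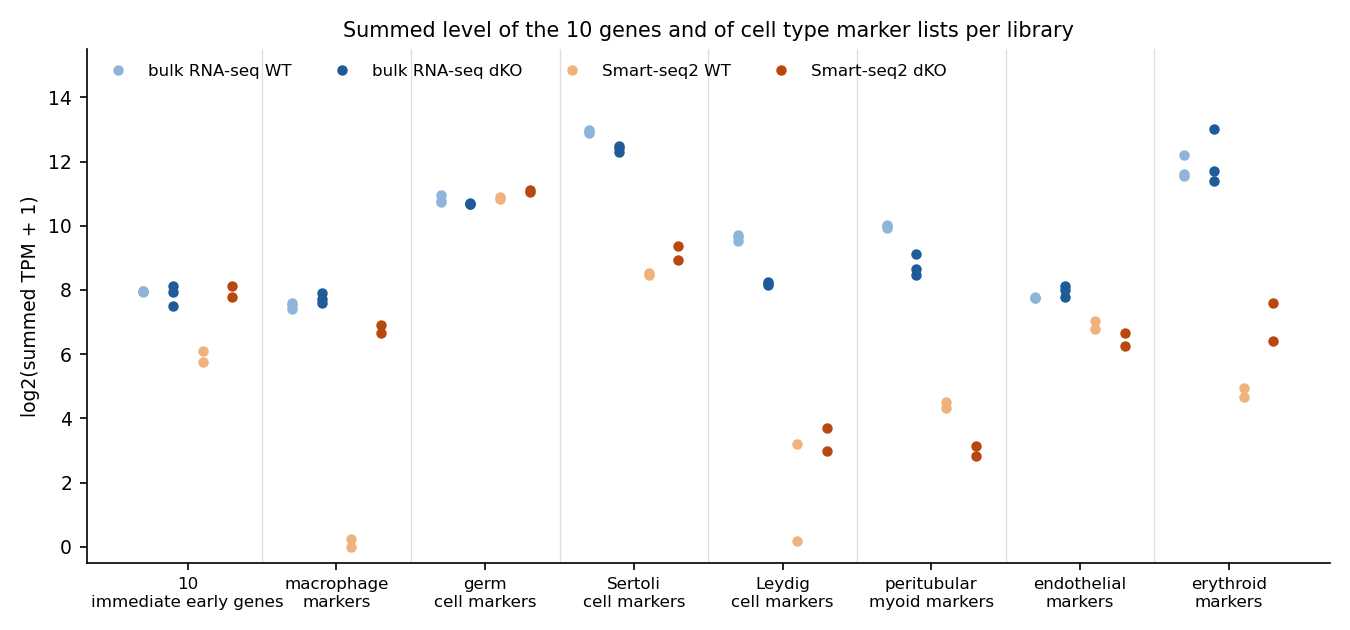
Summed TPM per library, as log2(summed TPM + 1), of the 10 immediate early genes and of each cell type marker list, with 1 point per library. In Smart-seq2 the macrophage sum goes from at most 0.19 TPM in WT to at least 99.7 TPM in Prmt1-dKO, while the germ cell sum stays between 1844 and 2205 TPM.

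The genes at 0 in both Smart-seq2 WT libraries were set beside the detection in those libraries. Of 11749 genes with at least 50 counts in both Smart-seq2 Prmt1-dKO libraries, 271 (2.31%) had 0 counts in both WT libraries, and 4 of the 10 immediate early genes (Fosb, Junb, Atf3 and Socs3) were among them. In the other direction, 16 genes had at least 50 counts in both WT libraries and 0 in both Prmt1-dKO libraries. A count of 0 over both WT libraries allows up to 3 counts, or 0.0826 CPM, for counting error only. The part of the lower gene detection of these libraries in the zeros was not tested.

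The question behind setting Smart-seq2 against bulk RNA-seq was how the levels of these genes in sorted, digested cells relate to those in whole testis. These contrasts also chose the list, so the calls among the 10 genes are a description and nothing is read from their counts. In WT, 7 of the 10 genes (Fosb, Jun, Junb, Egr1, Atf3, Socs3 and Zfp36) were called lower in Smart-seq2 than in bulk RNA-seq and 0 higher, where 34.2% of 19608 genes were called lower and 17.8% higher. DESeq2 called the same 7 lower and 0 higher, and with p unadjusted (under 0.05, 2-fold or more) edgeR put 3728 of all genes higher and 6999 lower. The call of Zfp36 was lost without any 1 of the 3 bulk WT libraries and without Smart-seq2 WT replicate 1, while Fos and Ier2 were called lower without Smart-seq2 WT replicate 2 and Dusp1 without replicate 1. In Prmt1-dKO, 4 genes (Fos, Fosb, Junb and Socs3) were called higher in Smart-seq2 and 1 (Jun) lower, against 16.8% and 25.4% of all genes. The call of Fos was lost without Smart-seq2 Prmt1-dKO replicate 2 or bulk Prmt1-dKO replicate 2, and Egr1 was called higher without bulk Prmt1-dKO replicate 3. The median log2 difference of the list was -3.06 in WT (-3.01 with the genes at 0 at their bounds, -0.46 over all genes) and 0.83 in Prmt1-dKO (-0.18 over all genes).

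Jun was the gene with the lowest level relative to whole testis in both genotypes among the genes with counts, at -4.40 ± 0.85 in WT and -2 ± 0.74 in Prmt1-dKO (log2, SE). Its call in Prmt1-dKO was lost when any 1 of the 5 libraries of that genotype was left out. Junb was at least 136-fold, Socs3 at least 113-fold, Atf3 at least 86.3-fold and Fosb at least 19.7-fold lower in Smart-seq2 WT than in bulk WT. In Prmt1-dKO the same 4 genes differed in direction, with Fosb (4.59 ± 0.45), Junb (2.42 ± 0.28) and Socs3 (1.35 ± 0.26) higher in Smart-seq2 and Atf3 at -0.74 ± 0.45. Fos stood at -0.97 ± 0.72 in WT and 2.59 ± 0.69 in Prmt1-dKO, and Egr1 at -1.72 ± 0.29 and 0.96 ± 0.27. Ier2, at -0.92 ± 0.17 and -0.03 ± 0.16, was not called in either genotype. Zfp36 (-1.09 ± 0.34 and -0.71 ± 0.33) was on the bulk side in both genotypes, while Dusp1 stood at 0 ± 0.43 in WT and 0.70 ± 0.42 in Prmt1-dKO. Cells, enzyme digestion, sorting, RNA amount and library chemistry all differ between the assays and cannot be told apart.

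In bulk WT the order of the mean levels per length was Jun (88.8 ± 1.37 TPM), Ier2 (58.5 ± 2.13), Egr1 (41.5 ± 1.12), Dusp1 (17.0 ± 0.890), Junb (11.3 ± 2.34), Zfp36 (10.4 ± 0.436), Socs3 (6.78 ± 0.677), Atf3 (6.54 ± 1.37), Fos (5.31 ± 0.982) and Fosb (0.753 ± 0.280; SD, n = 3). The ranges of Junb and Zfp36, of Socs3 and Atf3, and of Atf3 and Fos overlapped, and the other neighbours were apart. In bulk Prmt1-dKO the same order of means began with Jun (73.5 ± 21.1 TPM), whose range overlapped that of Ier2 (55.3 ± 1.02). In Smart-seq2 Prmt1-dKO the order began with Egr1 (57.2 ± 11.5 TPM, SD, n = 2), Junb (50.8 ± 14.5) and Ier2 (40.7 ± 0.785), whose ranges overlapped from one to the next, and Jun (14.0 ± 2.37) was at position 7. In Smart-seq2 WT Ier2 (25.7 ± 2.34 TPM) came first, above Dusp1 (13.8 ± 9.69) and Egr1 (10.4 ± 2.57), which overlapped each other.

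The rest of the pathway was followed in 5 lists of genes outside the 10. In bulk RNA-seq, 1 of 21 tested induced transcription regulators rose in Prmt1-dKO, the stress-responsive survival gene Ier3 (9.36 to 20.1 TPM, log2 fold change 1.26 ± 0.31, edgeR FDR = 0.0224), and none fell. Of 32 tested feedback inhibitors and effectors, 1 rose, the matricellular protein gene Ccn1 (32.1 to 58.9 TPM, 1.02 ± 0.30, edgeR FDR = 0.0436), and none fell. None of the 15 tested AP-1 and ATF partners, the 26 upstream kinases, receptors and factors or the 14 heat shock genes was called in either direction. In Smart-seq2 none of these genes was called by edgeR, and the median log2 fold changes were 0.64 for the AP-1 and ATF partners, 1.46 for the induced regulators, 1.24 for the feedback genes, 0.09 for the upstream genes and 0.48 for the heat shock genes, beside 3.17 for the 10 genes and 0.15 for all genes. Ccn1 was at 0 in both Smart-seq2 WT libraries and at a mean of 25.6 TPM in Smart-seq2 Prmt1-dKO.

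Set against whole testis, lower calls outnumbered higher ones in the related lists, as they did over all genes (34.2% lower and 17.8% higher in WT, 25.4% and 16.8% in Prmt1-dKO). In WT, 7 of 15 AP-1 and ATF partners, 13 of 21 induced regulators, 18 of 32 feedback genes and 12 of 26 upstream genes were lower in Smart-seq2, and 0, 1, 3 and 2 (Mrtfb and the kinase gene Rps6ka1) were higher. Among those with the largest differences were Nfil3 and Myc, listed at 0 TPM in Smart-seq2 WT against 18.5 and 12.1 TPM in bulk WT (edgeR FDR = 3.63e-06 and 7.71e-06), and Jdp2, an AP-1 partner that represses transcription, at 0.075 against 12.9 TPM (edgeR FDR = 0.000317). Ccn2, a growth factor-like matrix protein gene, was at 0.105 against 127 TPM (edgeR FDR = 2.5e-05) and Egfr, a receptor upstream of MAPK, at 0 against 4.48 TPM (edgeR FDR = 4.52e-05). Genes higher in Smart-seq2 WT were the orphan receptor gene Nr4a3 (9.78 against 0.817 TPM, edgeR FDR = 0.0192), the phosphatase genes Dusp2 (23 against 8.74 TPM, edgeR FDR = 0.00275) and Dusp5 (29.8 against 15.8 TPM, edgeR FDR = 0.00497), and Socs1 (19.9 against 10.5 TPM, edgeR FDR = 0.00162), the closest relative of Socs3 in function.

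In Prmt1-dKO, 4 of 15 AP-1 and ATF partners, 10 of 21 induced regulators, 10 of 32 feedback genes and 7 of 26 upstream genes were lower in Smart-seq2 than in bulk RNA-seq, and 0, 0, 2 and 1 (the SRF cofactor gene Mrtfb) were higher. Beside 25.4% of all genes called lower, the counts of the partners, feedback and upstream genes are not read as particular to these lists. The 2 higher feedback genes were the growth arrest gene Gadd45g (80.8 against 19.8 TPM, edgeR FDR = 0.03) and Dusp5 (30.5 against 16.7 TPM, edgeR FDR = 0.00448). Jund, the Jun paralog with a steady high level, was at 66.6 against 502 TPM (edgeR FDR = 6.26e-05), and Rhob, a small GTPase gene, at 14.1 against 146 TPM (edgeR FDR = 1.59e-05). Of the 14 heat shock genes, 3 were lower in Smart-seq2 in WT (Hspa1a, Hspa1b and Hspb1) and 2 higher (Dnajb1 and Hspa4l), and in Prmt1-dKO 2 were lower (Hspa1b and Hspb1) and 2 higher (Hspe1 and Dnaja1). The inducible chaperone gene Hspa1b was at 0.04 TPM in Smart-seq2 WT and 0.3 TPM in Smart-seq2 Prmt1-dKO, against 36.7 and 17.4 TPM in the bulk groups (edgeR FDR = 7.16e-06 and 7.24e-05).

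The mean profile of the 10 genes, each scaled to unit variance on log2(TPM + 1), was compared with 16683 other genes of a mean TPM of at least 1 over the 10 libraries, which share depth and assay within groups. Of the 10 genes themselves, Egr1 followed that mean most closely (Pearson's r 0.986), ahead of Socs3 (0.964) and Junb (0.943), and Fosb (0.575) and Zfp36 (0.618) least. Each of the 10 genes is part of that mean, which raises its r, so these values are not set against those of other genes. The 8 genes outside the list with the highest r were Zfp951 (0.99), Pcid2 (0.99), Zfp948 (0.983), Klf3 (0.982), Spocd1 (0.981), Cthrc1 (0.981), Esr1 (0.98) and Cyp26a1 (0.979). Klf3, Spocd1, Cthrc1 and Cyp26a1 were at 0 in both Smart-seq2 WT libraries, and Esr1 was at 0.13 to 0.26 TPM there against 5.32 to 8.99 TPM in Smart-seq2 Prmt1-dKO.

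Histone marks at the promoters were read from the 33 peak lists as peaks whose summit lay within 3000 bp of a transcript start. Where a gene had more than 1 such peak in a list, its width, position and q are those of the peak with the highest fold enrichment. H3K4me3, the mark of active and poised promoters, was present at all 10 genes in both lists at P7 and in both lists at P14. Of 21938 protein-coding genes, 60.7% and 63.1% had an H3K4me3 peak in at least 2 lists at P7 and P14, and 88.0% and 89.2% of the 13862 such genes with a mean bulk level of at least 1 TPM. These H3K4me3 peaks of the 10 genes, 1 per gene and list, were 385 to 2341 bp wide with a median of 1269 bp. All 40 passed a q of at most 0.01. Over all H3K4me3 promoter peaks, with no such choice of peak, the list medians were 842 to 951 bp. Fosb, Junb, Atf3 and Socs3, without a count in the WT sorted cells, carried the mark in all 4 lists.

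H3K27ac, the acetylation of active promoters and enhancers, was found in both P7 lists at 5 of the 10 genes (Jun, Egr1, Ier2, Dusp1 and Zfp36), where 30.9% of protein-coding genes and 47.0% of the expressed ones had it. At P14 it was found in both lists at 7 genes, Fos and Junb added, against 48.9% and 72.6%. Fosb and Atf3 had a peak in 1 of 2 lists at P14 and in none at P7. Socs3 had no H3K27ac peak in the 4 lists.

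**Figure D4:**
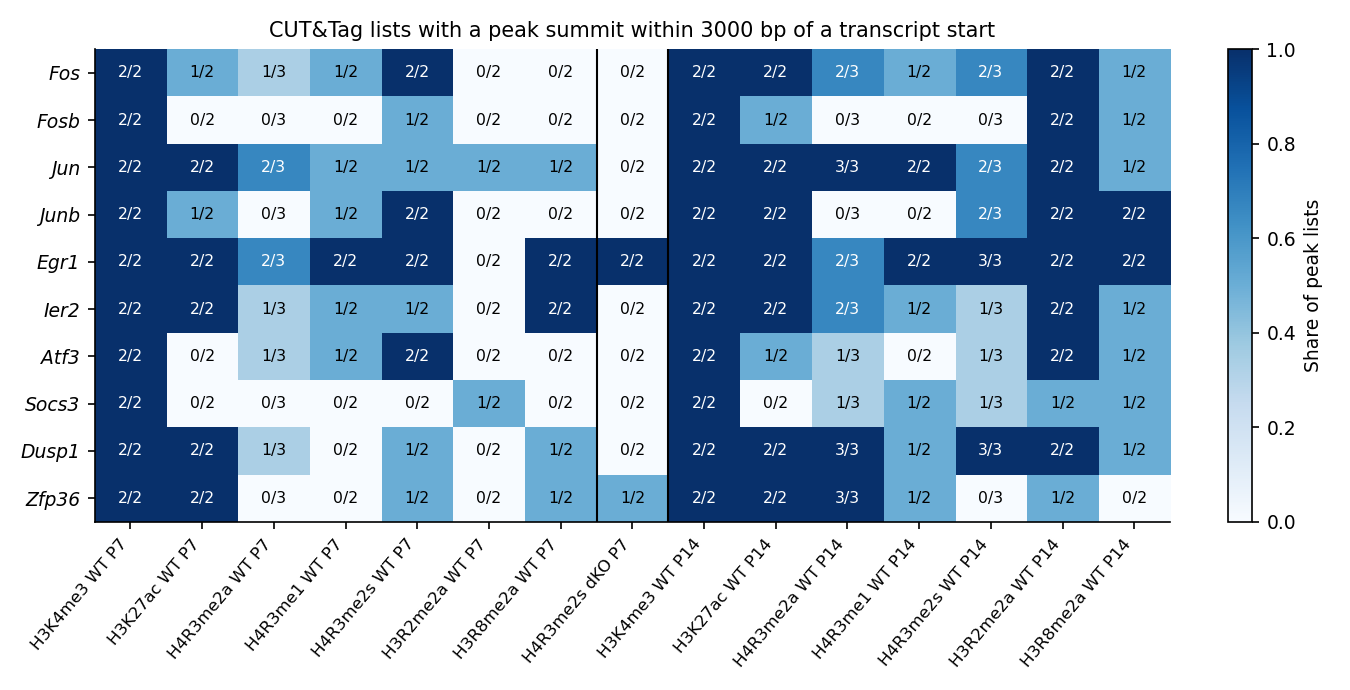
Number of peak lists with a summit within 3000 bp of a transcript start of each gene, out of the lists of each mark, age and genotype (cells give lists with a peak over lists available, shading the share). H3K4me3 is filled for every gene, Egr1 has a peak in 29 of the 33 lists and Fosb in 9.

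Arginine methylation peaks were fewer and varied between replicates. At P7 in WT, H4R3me2a, the asymmetric mark that PRMT1 writes, was found in at least 2 of 3 lists at 2 genes (Jun and Egr1), against 15.3% of protein-coding genes. H3R8me2a was found in both lists at Egr1 and Ier2 (9.67%), H4R3me1, the monomethyl precursor, at Egr1 alone (10.8%), and H3R2me2a at 0 genes (10.9%). H4R3me2s, the symmetric mark at the same residue, was found in both lists at 4 genes (Fos, Junb, Egr1 and Atf3), against 17.7%. With 10 genes, nothing particular to them is read from counts of 0 to 4.

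At P14 the number of the 10 genes marked in at least 2 lists was larger than at P7 for H4R3me2a, H3R2me2a and H4R3me1 and equal for H3R8me2a, and the share of all genes was larger for these 4 marks. H4R3me2a was found in at least 2 of 3 lists at 6 genes (Fos, Jun, Egr1, Ier2, Dusp1 and Zfp36), against 49.0% of protein-coding genes, and in all 3 lists at Jun, Dusp1 and Zfp36. H3R2me2a went from 1 gene in each P7 list (Jun in one, Socs3 in the other) to 9 genes in each P14 list, and 8 genes (all but Socs3 and Zfp36) had it in both P14 lists, against 51.3%. Over all protein-coding genes the share with an H3R2me2a promoter peak went from 24.3% and 24.1% in the P7 lists to 58.3% and 61.5% in the P14 lists. H3R8me2a (Junb and Egr1, 33%) and H4R3me1 (Jun and Egr1, 29.9%) were each found in both lists at 2 genes. H4R3me2s was found in at least 2 of 3 lists at 5 genes (Fos, Jun, Junb, Egr1 and Dusp1), against 34.2%. That mark had 2 lists at P7 and 3 at P14, which makes 2 lists easier to reach at P14, and per list the mean was 6.5 of the 10 genes at P7 and 5 at P14 (33.4% and 35.9% of protein-coding genes). Of the expressed protein-coding genes, 66.6% had H4R3me2a in at least 2 P14 lists, 69.0% H3R2me2a, 47.6% H3R8me2a, 43.0% H4R3me1 and 49.5% H4R3me2s.

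For H4R3me2a and H3R2me2a list length moved with age, from 16995 to 18722 H4R3me2a peaks at P7 to 39597 to 44836 at P14, and from 18821 to 20891 H3R2me2a peaks to 47975 to 55908. The H4R3me2s lists in WT held 19981 to 36145 peaks at P7 and 18423 to 33814 at P14. With lists cut to equal length, the P14 minus P7 difference in the mean number of genes per list went from 3 to 0 for H4R3me2a, from 2 to -1 for H3R8me2a, and from 8 to 6.5 for H3R2me2a. Read depth behind the lists is unknown, and age, cell composition and list length cannot be told apart.

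**Figure D5:**
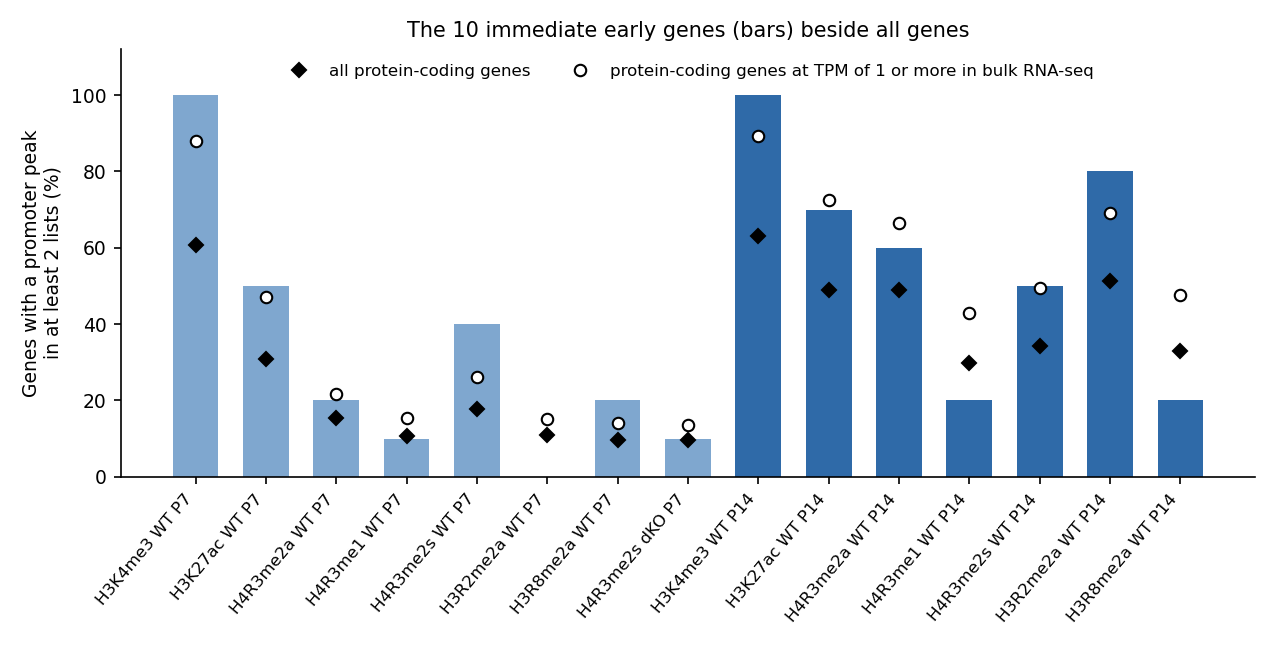
Share of the 10 genes (bars, in steps of 10%) with a promoter peak in at least 2 lists of each mark and age, in WT unless marked dKO, beside the share of all protein-coding genes (diamonds) and of those at 1 TPM or more in bulk RNA-seq (circles). At P14 the bars for H4R3me1 and H3R8me2a (2 of 10 genes each) lie below both backgrounds, at 29.9% and 33% of protein-coding genes. With 10 genes, nothing particular to them is read from these bars.

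The sole comparison of genotypes by CUT&Tag was H4R3me2s at P7. In WT 9 and 4 of the 10 genes had an H4R3me2s promoter peak in the 2 lists, and in Prmt1-dKO 2 and 1 did. Egr1 was the gene with a peak in both Prmt1-dKO lists, against 9.77% of protein-coding genes with 2 lists (13.7% of the expressed ones), and Zfp36 had it in 1. Fos, Junb and Atf3, in both WT lists, were in none of the Prmt1-dKO lists. Over all protein-coding genes the share was 33% and 33.7% in the WT lists and 27.4% and 23.0% in the Prmt1-dKO lists, which held 33941 and 28221 peaks against 19981 and 36145. With peaks at a q of at most 0.01, the difference between the genotypes in the mean number of genes per list went from -5 to -1. It was -2.5 without WT replicate 1 and -7.5 without WT replicate 2, and 2 lists against 2 are too few for an exact test to pass.

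By gene, Egr1 was marked most often, in 29 of the 33 lists, followed by Jun (24), Dusp1 (21), Ier2 (20) and Fos (19), and Socs3 (10) and Fosb (9) least often. Of all protein-coding genes, 95.0% had a peak in fewer lists than Egr1 and 36.8% in fewer than Fosb. Egr1 had arginine methylation peaks in 21 of 25 lists, with summits between -589 and 558 bp of the nearest start and a median of 352 bp downstream. For Fos, the 12 lists with an arginine methylation peak had summits from -1505 to 1441 bp with a median of -178 bp. Of these, 9 lay -231 to -81 bp from the start, inside the upstream window printed above. Within 250 bases upstream of any GENCODE start of the gene, Dusp1 had 4 of 13 such summits, Atf3, Socs3 and Zfp36 had 1 each and the other 5 genes none. Such a start need not be that of the printed window. The Socs3 peak (117969825 to 117970406) lay outside the printed window. So did Dusp1 peaks at 26561543 to 26561873, at 26561595 to 26561852 and at 26507783 to 26508060. Fosb had its 4 arginine methylation summits 1039 to 2250 bp downstream of the start, inside the gene.

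Some peaks counted for a gene lay nearer to another start. The counts of lists here rest on the peak of highest fold enrichment of the gene in each list. Of the 12 lists with an arginine methylation peak at Ier2, 1 had the summit nearest to the Ier2 start, and the others were nearest to Gm26664, with a median of -2562 bp from Ier2. At Jun the antisense gene Junos was the nearest start in 15 of 16 such lists. At Dusp1 the own start was nearest in 9 of 13 such lists, and Ergic1 in the others. The annotated Dusp1 span of 56539 bp has 6 starts, and its upstream end at 26562128 lies beside Ergic1. Peaks there were counted for Dusp1, such as an H4R3me2a peak (26561929 to 26562318) and an H3K4me3 peak (26561110 to 26562346) in WT at P7. The lists with a Dusp1 peak thus mix that locus with the promoter printed above. At Zfp36 the antisense gene Gm44710 was nearest for 3 of the 4 H3K4me3 summits. Arginine methylation peaks of the 10 genes had median widths from 236.5 bp (H4R3me1) to 353.5 bp (H3R2me2a). Over all promoter peaks, with no such choice of peak, the list medians were 258 to 293 bp for H4R3me1 and 267 to 348 bp for H3R2me2a. With 1 peak per gene and list, those of the 10 genes that passed a q of at most 0.01 were 8 of 25 for H4R3me2a and 13 of 20 for H3R2me2a. They were 4 of 18 for H3R8me2a, 3 of 16 for H4R3me1 and 5 of 31 for H4R3me2s.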

How the data were processed

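RNA was measured in 10 libraries and histone marks in 33 CUT&Tag samples. The authors trimmed reads with fastp 0.23.2, mapped them to mm10 with STAR and summarised them with RSEM (version and annotation: not given in the sources used here). The expected counts deposited by the authors carry no normalization and were rounded here to whole numbers. The TPM values deposited by the authors are scaled by RSEM within each library to transcript length and used here for levels. FPKM was not used. The authors called peaks with MACS2 2.1.0 for each sample. The fold enrichment in each list they deposited is a ratio to local background within that sample and served here only as a rank within its list, and the −log10 q they deposited served for the alternative of a q of at most 0.01. The −log10 p was used to shorten lists to equal length.

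Counts were tested with edgeR 4.0.16 (R 4.3.3; filterByExpr with at least 10 counts and 15 in total, TMM, quasi-likelihood test, Benjamini-Hochberg adjustment over all genes tested), within each assay for genotype and in a joint fit of 4 groups for assay. A gene was called when its FDR was under 0.05 and it differed at least 2-fold. The fit was tested on simulated data. DESeq2 1.42.0, limma 3.58.1 on log2(TPM + 1), RLE size factors, no filter, a replicate block and leaving out each library were alternatives. Folds against a group at 0 use library totals and a floor of 3 counts over the group, and cover counting error only. Peaks were assigned by summits within 3000 bp of GENCODE vM21 transcript starts, with 1000 bp as an alternative. Motifs were searched in Python 3.11.15.

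The 10 genes and all lists were chosen with earlier results of these data known, and Fos, Junb, Egr1 and Socs3 had been seen in them. Genes named from the other lists are called genes, at most 4 per direction in genotype contrasts and 3 in assay contrasts, and the 8 genes of highest r were named by rule.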

Additional observations from a re-analysis of the deposited data

How the results depend on the processing

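In bulk RNA-seq no alternative brought a call among the 10 genes, and their median log2 fold change stayed between 0.06 and 0.33. In Smart-seq2 the number of the 10 genes called higher in Prmt1-dKO was 0 with edgeR, 6 with DESeq2 and 0 to 8 without 1 library, 8 of them without WT replicate 1 or 2 (where 5290 and 4089 of all genes were called higher, against 0) and 0 without either Prmt1-dKO library. The Smart-seq2 median log2 fold change was 3.17, and 2.97 to 4.22 without 1 library, the highest without WT replicate 2. Leaving out a library there leaves 1 sample in a group, which is assumed to vary like the others. Set against bulk RNA-seq in WT, the median was -3.06, and -1.55 with limma on log2(TPM + 1), a scale that understates the change of low genes. Without 1 library it was -4.68 to -2.99, the lowest without Smart-seq2 WT replicate 1. In Prmt1-dKO the 1 gene called lower in Smart-seq2, Jun, was lost without any of the 5 libraries of that genotype (0 to 0). The cause was not tested. No called fold change of the 10 genes turned its direction. Among the uncalled ones, 6 to 9 of the 10 were above 0 in bulk RNA-seq without 1 library, in place of 8, and Dusp1, at 0 in the WT comparison of assays, was above 0 under 8 of 10 alternatives. Of the single-gene fold changes, 93 of 100 in bulk RNA-seq and 76 of 80 in Smart-seq2 moved by less than their SE, and of the counts for the other lists 309 held within 1.5 times and 71 did not.

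With the replicate number as a block, the median of the 10 genes was 0.13 in bulk RNA-seq and 3.73 in Smart-seq2, and 0 of them were called in either assay. The block took the calls over all bulk genes from 881 higher and 294 lower to 691 and 259. Deviations of same-numbered libraries correlated at 0.0825, -0.221 and -0.119 in bulk RNA-seq, where those of unlike number ran from -0.226 to 0.261. In Smart-seq2 the value was 0.0177, and with 2 libraries per group it can only change its sign between pairings. These values show no pairing by number and cannot exclude one.

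In the peak lists, the P14 minus P7 difference in the mean number of the 10 genes per list was 1.33 for H4R3me2a, 7 for H3R2me2a and 5.5 for H3K27ac with peaks at a q of at most 0.01, in place of 3, 8 and 2. With summits within 1000 bp it was 6.5 for H3R2me2a and 2 for H4R3me1, in place of 8 and 1. With lists of equal length it was 0 for H4R3me2a, 6.5 for H3R2me2a and -1 for H3R8me2a, the last from 2. For H4R3me2s the Prmt1-dKO minus WT difference at P7 was -1 at that q, in place of -5. Without 1 list, the P14 minus P7 difference ran from -0.5 to 4.5 for H3R8me2a and from -4 to 1 for H4R3me2s, where it was -1.5.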
